A study of Mus musculus with 6 samples.

Results

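The genes described here carry a hormone signal from the cell membrane to the nucleus through G proteins and cyclic AMP (cAMP): the α, β and γ subunits of heterotrimeric G proteins, the adenylyl cyclases that make cAMP, the subunits of protein kinase A (PKA), the A-kinase anchoring proteins (AKAPs), the CREB and CREM transcription factors, and the phosphodiesterases that break cyclic nucleotides down. Members were taken by the symbol of the array annotation, by a rule that reads no signal, but the gene set itself was proposed with earlier results of these data known. The choice took 62 genes on 91 probe sets, of 8251 named genes on the array. Of these 62 genes, 41 had their brightest probe set above the filter on dim signals and were tested, on 58 probe sets in all, and 21 were too dim to test.

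The data come from the adrenal glands of chromogranin A (Chga) knockout mice and of wild-type control mice, all male and 12 weeks old. Each genotype has 3 arrays, taken here as 3 mice, and the groups differ in no other labelled agent or allele. The labels name the knockout line by its publication only, and the sources used here do not describe its breeding or the strain background of the controls. Chga encodes an acidic protein of the granules in which chromaffin cells store catecholamines.

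In a heterotrimeric G protein an activated receptor makes the α subunit exchange GDP for GTP and part from the βγ pair. Gs-type α subunits stimulate adenylyl cyclase, Gi-type subunits inhibit it, and Gq-type subunits act through phospholipase C. cAMP releases the catalytic subunits of PKA from its regulatory subunits, and PKA phosphorylates CREB, which drives genes with a cAMP response element. In the adrenal cortex this is the route by which corticotropin stimulates steroid output. In chromaffin cells it acts beside calcium in secretion and in the induction of catecholamine and neuropeptide genes. Whole glands were measured, so a lower signal from fewer cells of a type and one from less RNA per cell cannot be told apart.

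The arrays carried the adrenal's own transcripts in both genotypes. The summed signal of 7 cortex markers lay between 466333 and 532763 in the knockout and between 437489 and 534782 in the wild type. That of 5 chromaffin markers lay between 185192 and 201164 and between 156246 and 168008, with every knockout array above every wild-type one. Of these 5 markers 0 passed the test. Only Chgb, a large part of the sum, was itself separated in this way (93585 to 120199 against 69305 to 77123). Th, Pnmt, Cyb561 and Ddc overlapped, and Pnmt had a lower value (log2 change -0.23). Chga fell in the knockout (log2 change -5.19 ± 0.20, adjusted p = 5.29e-06), from 30213 to 46719 on the wild-type arrays to 858 to 1188 on the knockout arrays. Knockout arrays 2 and 3 stood apart in some respects from knockout array 1. The summed signal of 11 skeletal muscle markers was 63234 and 31531 on them, against 4762 on knockout array 1 and 4324 to 5021 in the wild type, with 7 of the 11 markers carrying the excess and none at 0 on any array. The summed signal of 8 macrophage markers was 17219, 27922 and 24300 on knockout arrays 1 to 3 and 13783 to 17263 in the wild type. That of 6 endothelial markers was 24277, 28843 and 28326 against 18710 to 22563, with no overlap, and that of 6 adipocyte markers 41146, 73636 and 61939 against 29987 to 62211. The endothelial sum was led by Eng, at 12747 to 15045 in the knockout against 9416 to 10331 in the wild type. Eng and Tek were separated by genotype, while Pecam1, Cdh5, Kdr and Flt1 overlapped. Of the macrophage markers Csf1r and Cd14 were separated, and of the adipocyte markers Cidec, while the others of these lists overlapped. None of the macrophage, endothelial or adipocyte markers passed the test, and their part in the results below was not tested. For the Gapdh control, the 3' signal divided by the 5' signal, a sign of RNA or cRNA integrity, was 0.831, 1.30 and 1.29 on knockout arrays 1 to 3 and 0.762 to 0.806 in the wild type.

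No gene of the pathway core passed the test between genotypes. In limma's fit over all 7453 tested probe sets, 0 of the 58 member probe sets had an adjusted p under 0.05, beside 0.443% of all tested probe sets, and their lowest adjusted p was 0.230. Every member value below that is called higher or lower is therefore a value that missed the threshold. With each gene taken by its brightest probe set, 5 of 41 member genes had an unadjusted p under 0.05, beside 10.7% of all tested genes. The 3 with higher values were Gnai2, Gnai3 and Prkacb, beside 5.26% of all tested genes, and the 2 with lower values were Gnai1 and Akap1, beside 5.47%. By probe set there were 12 of 58, beside 11.3% of all. The count of 5 was 9, 1 and 3 when knockout array 1, 2 or 3 was left out, 3 without wild-type array 1, and 1 with the Gapdh ratio as a covariate. The share of all tested genes in these fits was not computed, so these shifts cannot be read as particular to the members. Without knockout array 1 the share of all probe sets past adjusted p 0.05 was also higher, at 1.89%.

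The members' changes were small and centred near 0. Their median log2 change was 0.10, beside -0.00 over all tested genes, and 24 of 41 were above 0, or 58.5%, beside 49.7% of all tested genes. None of the 41, each by its brightest probe set, had a log2 change over 1 in size, beside 2.19% of all tested genes. The largest was 0.84. By probe set 2 of 58 had one, or 3.45%, beside 2.67% of all tested probe sets, and the largest was 1.33 in size. By gene the typical size of a change was 0.24 (median of the absolute log2 values), against a median standard error of 0.22. Over all tested genes these were 0.19 and 0.20. The 3 knockout arrays lay wholly above the wild-type arrays for 4 member genes, beside 7.88% of all tested genes, and wholly below for 2, beside 8.41%. Together these are 14.6% of the 41, where 16.3% of all tested genes were separated in this way. These shares by gene lie near those of all genes. By probe set 19% of the members were separated, beside 16.4% of all tested probe sets.

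**Figure D1:**
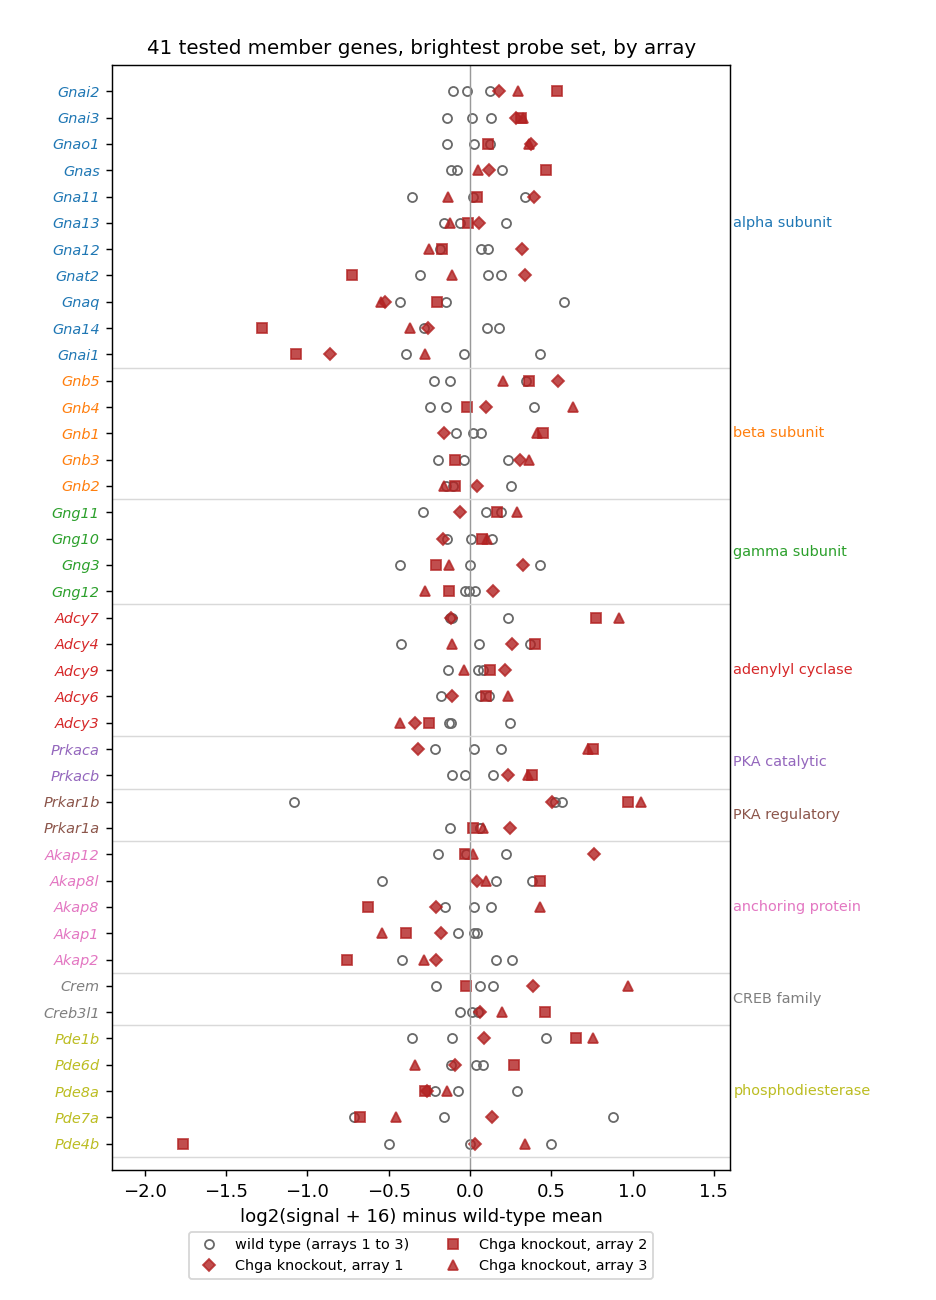
Each row is 1 of the 41 tested member genes by its brightest probe set, grouped by role, and each point is 1 array: log2(signal + 16) minus the mean of the 3 wild-type arrays (open circles, wild type; red diamonds, squares and triangles, knockout arrays 1, 2 and 3). Red points lie both among and outside the open circles of their rows. For 6 genes, among them Gnai2, Gnai3, Prkacb and Akap1, all red points lie on one side of the open circles.

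With each gene taken by its brightest probe set, the inhibitory subunit genes Gnai1, Gnai2 and Gnai3 had the lowest p among the α subunits. Their values did not all lie in the same direction. Gnai1 encodes 1 of the 3 closely related Gi proteins. Its signal, in the order of arrays 1 to 3, was 1584, 1367 and 2377 in the knockout and 2193, 3901 and 2817 in the wild type. The groups overlapped, because knockout array 3 exceeded wild-type array 1. The log2 change was -0.74 ± 0.27, with a 95% interval from -1.35 to -0.13 (adjusted p = 0.390). Its dimmer probe set was not tested, with 144, 245 and 53.6 in the knockout and 311, 730 and 330 in the wild type, where the groups did not overlap.

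Gnai2 and Gnai3, the other two Gi genes, had higher values in the knockout. Gnai2 read 44102, 56486 and 47826 in the knockout and 38501, 36223 and 42407 in the wild type, a log2 change of 0.34 ± 0.13 (adjusted p = 0.402). The genotypes did not overlap. Its other probe sets had log2 changes of 0.51 ± 0.19 and 0.15 ± 0.13. The first of these gave 14312 on knockout array 1, within the wild-type range, and 23068 and 21250 on knockout arrays 2 and 3. Gnai3 read 23545, 24070 and 24267 in the knockout and 19550, 21220 and 17566 in the wild type, again with no overlap (log2 change 0.31 ± 0.12, adjusted p = 0.403).

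**Figure D2:**
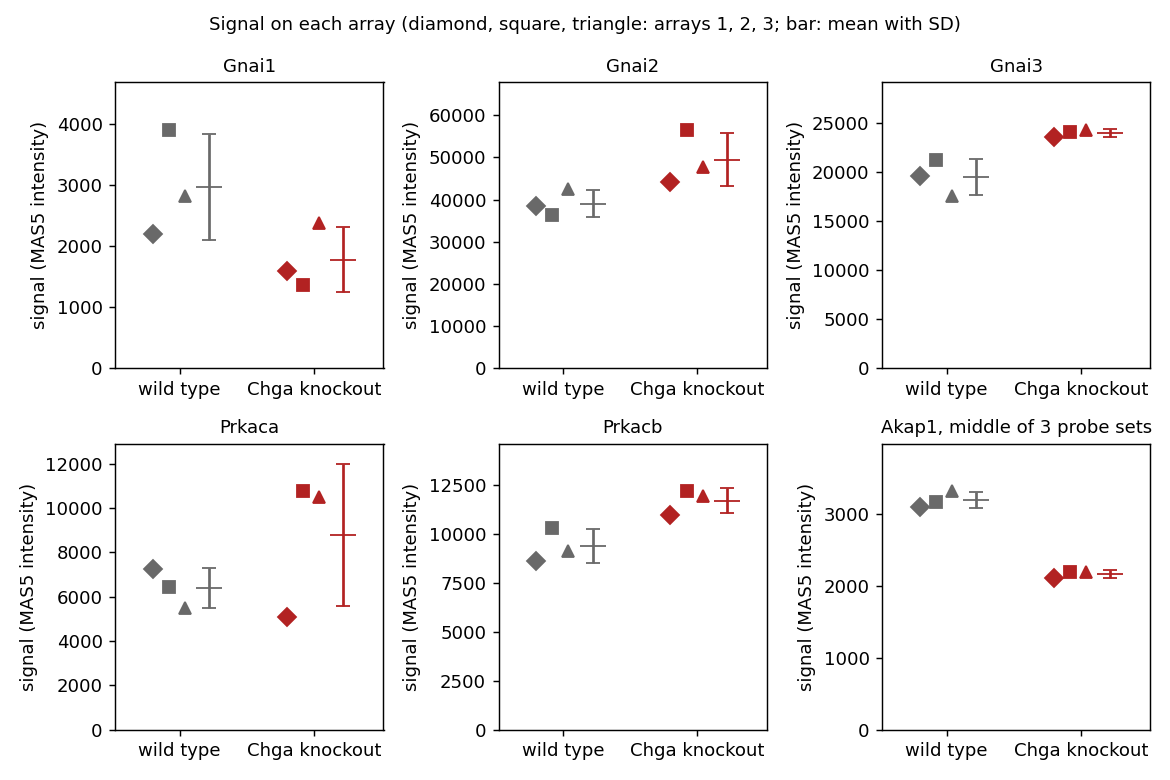
MAS5 signal (linear axis from 0) of Gnai1, Gnai2, Gnai3, Prkaca and Prkacb (brightest probe set of each) and of the middle probe set of Akap1 on each array, with the mean and SD of 3 arrays per genotype. Gnai2, Gnai3, Prkacb and Akap1 separate the genotypes, while for Prkaca knockout array 1, at 5082, lies below every wild-type array and the other knockout arrays, at 10758 and 10508, above them.

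Gnas, the gene of the stimulatory α subunit, gave a high signal in every gland. Its brightest probe set read 99314, 126567 and 94562 in the knockout and 84378, 104674 and 86591 in the wild type (log2 change 0.21 ± 0.15, adjusted p = 0.619), and the groups overlapped. A dim Gnas probe set read 1090, 1140 and 820 against 420, 747 and 583, with no overlap (log2 change 0.81 ± 0.31, adjusted p = 0.40). The Gnas locus is imprinted and makes several transcripts from different promoters, and which of them each probe set detects was not analysed here. The antisense transcript of the locus, Gnasas1, was dim, at 189 to 192 in the knockout and 124 to 305 in the wild type.

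Gnao1, which encodes the Go subunit of neurons and endocrine cells, had 3 tested probe sets with unlike values. The brightest read 3311, 2748 and 3281 in the knockout and 2586, 2769 and 2304 in the wild type (log2 change 0.28 ± 0.16, adjusted p = 0.541). A dim one read 551, 1005 and 1465 against 602, 406 and 285 (log2 change 1.15 ± 0.43, adjusted p = 0.397), and another had a log2 change of -0.09 ± 0.27. Gnaz, a Gi-class subunit of nerve and endocrine cells, was left out as dim, with 421, 426 and 286 in the knockout and 215, 170 and 185 in the wild type, where the groups did not overlap. Among 33 dim member probe sets, Gnaz was the only one with all knockout arrays above the wild type, beside 5.09% of all 4969 dim probe sets, and 2 had all of them below, beside 4.05%.

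The Gq-type subunits, which couple angiotensin receptors to phospholipase C, showed no call. Gna14 read 1959, 959 and 1813 in the knockout and 2521, 2660 and 1926 in the wild type, so that only knockout array 1 reached the wild-type range. Its log2 change was -0.64 ± 0.28, with an interval from -1.28 to 0.01 (adjusted p = 0.445). Without knockout array 2 it was -0.31, and with the Gapdh covariate -0.15. Gnaq had a log2 change of -0.42 ± 0.34. Gna11, the third Gq-type gene tested, had values on the other side of 0, at 0.10 ± 0.22 for its brightest probe set and 0.66 ± 0.39 (adjusted p = 0.553) for the dimmer. Over the 11 tested α subunit genes, 5 had higher and 6 lower values, from -0.74 to 0.34.

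Gna12, an α subunit gene, had probe sets whose log2 changes differed by 1.29. The brightest had a log2 change of -0.03 ± 0.18. The dimmer read 1990 on knockout array 1, within the wild-type values of 1944, 2230 and 1467, and 367 and 521 on knockout arrays 2 and 3, for a log2 change of -1.33 ± 0.54 (adjusted p = 0.408). With knockout array 1 left out, this probe set fell (log2 change -2.04 ± 0.30, adjusted p = 0.0143) and the middle probe set of Gnai2 rose (0.72 ± 0.14, adjusted p = 0.0416). These 2 of 58 member probe sets were the only ones to pass in that fit, in which 1.89% of all tested probe sets did. Knockout arrays 2 and 3 are also those with the high Gapdh ratios and the muscle transcripts. With the Gapdh ratio as a covariate the values of Gna12 and Gnai2 were 0.39 and 0.00, and with knockout array 1 alone they were 0.10 and 0.09. Both of these settings rest largely on knockout array 1.

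The β and γ subunits, which anchor the α subunit and signal to channels and phospholipases, had no call. Of 5 β genes 4 had higher values, with a median log2 change of 0.23, and of 4 γ genes 2 did. Gnb1 had opposed probe sets. Its brightest read 10376 on knockout array 1, below the wild-type values of 10910, 11751 and 12178, and 15828 and 15449 on knockout arrays 2 and 3 (log2 change 0.23 ± 0.18). Its other probe sets, designed on a different sequence record, lay lower in every knockout array than in any wild-type array, at 7001, 6359 and 5684 against 7770, 9348 and 8563 (log2 change -0.43 ± 0.14, adjusted p = 0.351) and at -0.42 ± 0.16 (adjusted p = 0.404). The direction for Gnb1 therefore depends on the probe set. Gnb5, the β subunit that pairs with RGS proteins, stood at 0.37 ± 0.21 on the log2 scale (adjusted p = 0.541) and Gnb4 at 0.24 ± 0.24.

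Among the 4 tested γ genes the log2 changes ran from -0.09 to 0.13. Gng12 read 7627, 6321 and 5701 in the knockout and 6783, 6900 and 7087 in the wild type (-0.09 ± 0.15). Gng11 had 0.13 ± 0.22 and Gng10 0.00 ± 0.15, with an interval from -0.33 to 0.34. The dim probe set of Gng12 read 634, 272 and 337 against 671, 1054 and 711, with no overlap, and was not tested. Gng2, Gng4 and Gngt2 were dim.

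**Figure D3:**
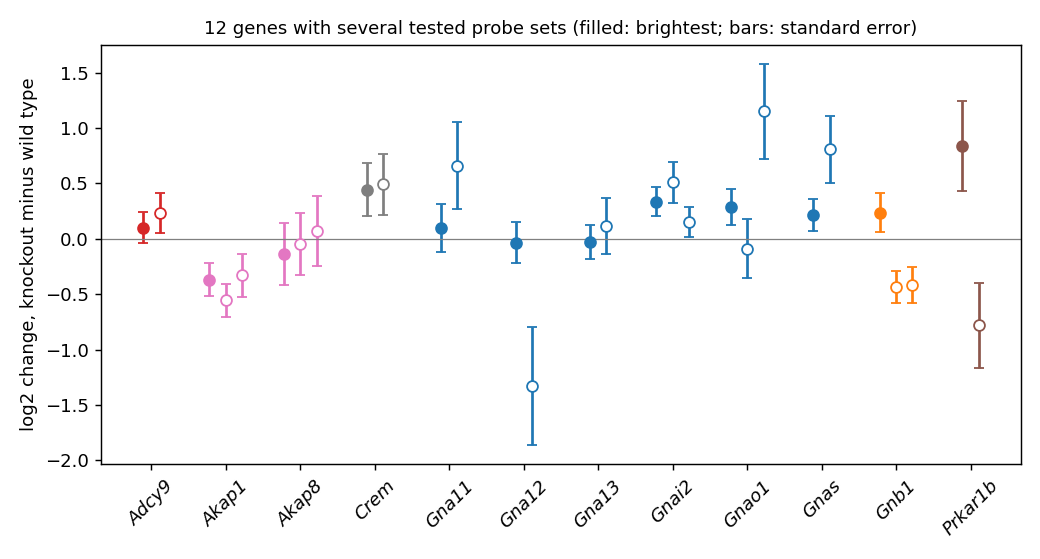
Log2 change (knockout minus wild type) with its standard error for every tested probe set of the 12 member genes that have more than 1, from the brightest (filled) to the dimmest, coloured by role. Probe sets of Akap1 and Crem lie together, while those of Gnb1, Gnao1 and Prkar1b lie on both sides of 0 and those of Gna12 differ by 1.29.

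Adenylyl cyclases, which make cAMP from ATP, had 5 tested genes with log2 changes from -0.34 to 0.52 and a median of 0.10. Adcy7 read 1361 on knockout array 1, beside 1372, 1358 and 1740 in the wild type, but 2544 and 2814 on knockout arrays 2 and 3 (log2 change 0.52 ± 0.28, adjusted p = 0.512). It is a cyclase known from blood cells, and the summed macrophage markers were also highest on knockout arrays 2 and 3. Among the knockout arrays, however, Mpeg1 was highest on array 1 (2880, 2204 and 2639) and Cd14 lowest on array 2 (4172, 3969 and 4594). The other macrophage markers were lowest on knockout array 1, where Csf1r, at 2543, still exceeded every wild-type array. The part of macrophages in the Adcy7 value was not tested. With knockout array 1 alone the value was -0.12. Adcy3 was lower in all knockout arrays, at 1473, 1565 and 1379 against 2222, 1703 and 1722 (log2 change -0.34 ± 0.19, adjusted p = 0.525). The widely expressed Adcy9 read 7625, 7163 and 6399 against 6953, 5992 and 6801 (0.10 ± 0.14). Adcy2 and Adcy8 were dim.

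The catalytic subunits of PKA both had higher means in the knockout, with different patterns over the arrays. Prkacb, which encodes the β catalytic subunit, read 11004, 12197 and 11962 in the knockout and 8643, 10337 and 9153 in the wild type, with no overlap (log2 change 0.32 ± 0.13, interval 0.03 to 0.62, adjusted p = 0.408). Prkaca, the α catalytic subunit gene that is mutated in some cortisol-producing adrenal tumours, read 5082, 10758 and 10508 against 7255, 6450 and 5480. Its log2 change was 0.39 ± 0.28 (adjusted p = 0.637), and -0.32 with knockout array 1 alone. Leaving out knockout array 1 gave 0.74 ± 0.16 (adjusted p = 0.0638).

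The regulatory subunits hold the catalytic subunits inactive until cAMP binds. Prkar1a, whose loss causes nodular disease of the adrenal cortex in people, read 36265, 31066 and 32349 in the knockout and 31946, 31957 and 28074 in the wild type. Its log2 change was 0.12 ± 0.12, with an interval from -0.16 to 0.39 (adjusted p = 0.757), and the groups overlapped. For Prkar1b, the form known from nervous tissue, the probe sets were opposed. The brightest read 2555, 3547 and 3740 against 2587, 840 and 2666 (log2 change 0.84 ± 0.41, adjusted p = 0.476), and 0.30 without wild-type array 2, whose value was the lowest. The other read 3059, 2175 and 890 against 3488, 3013 and 2905 (log2 change -0.78 ± 0.38, adjusted p = 0.484). Prkar2a was dim, at 526, 118 and 207 in the knockout and 477, 721 and 655 in the wild type.

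Prkar1a was also the only searched member with a complete cAMP response element near its start in the promoter sequences used here. These were RefSeq-based windows of GRCm38.p6, from 250 bases before to 50 bases after a gene's start, and 44 of the 62 members matched by symbol. The members without a window, among them Crem, Gnai2 and Akap2, were not searched. The element searched was TGACGTCA, which reads the same on both strands. It was present in 1 of the 44 members, or 2.27%, in 2.03% of the 27025 genes with such a window and in 3.47% of the 4578 tested genes with one. The shorter core TGACG, which the full element contains, was searched on both strands. It was present in 16 of 44 members, or 36.4%, in 23% of all genes with a window and in 36.5% of those tested. A list of cAMP-inducible genes, described below, held the full element in 4 of 17 matched genes, or 23.5%, and the core in 15, or 88.2%. That list was chosen for induction by cAMP, which acts on this element through CREB, so its share is no independent result. A match is a run of letters and not a measured binding site.

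The windows around the element are printed to set the member Prkar1a beside 3 of the 4 genes of the inducible list that carry it. These are Btg2, which rose in the knockout, and Dusp1 and Th, which did not pass. The other, Sst, was too dim to test and its window is not printed. Dusp1 had a log2 change of 1.28 in limma's fit (adjusted p = 0.0732), with every knockout array above every wild-type one. Th had 0.12, and its groups overlapped. Each is given 5′ to 3′ on the gene's strand, with the element in capitals, and ends before the gene's start. Prkar1a lies on the plus strand at chr11:109650874-109650933, with the element beginning 49 bases before the start. The others lie on the minus strand, Btg2 at chr1:134079288-134079347 (166 bases before the start), Dusp1 at chr17:26508582-26508641 (143 bases) and Th at chr7:142900007-142900066 (45 bases).
Prkar1a: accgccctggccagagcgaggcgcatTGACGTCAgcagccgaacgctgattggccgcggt
Btg2: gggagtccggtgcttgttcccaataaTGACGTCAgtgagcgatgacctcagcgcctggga
Dusp1: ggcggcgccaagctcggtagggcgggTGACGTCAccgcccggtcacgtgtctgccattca
Th: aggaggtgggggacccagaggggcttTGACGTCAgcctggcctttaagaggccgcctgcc

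Anchoring proteins hold PKA near its substrates. Akap1, which ties it to the outer mitochondrial membrane, had the lowest p of the 58 member probe sets, on its middle probe set. With genes represented by their brightest probe set, Gnai1, Gnai2, Gnai3 and Prkacb had lower p than Akap1. All 3 of its probe sets had lower values in every knockout array than in any wild-type array. The middle one read 2107, 2200 and 2198 in the knockout and 3097, 3170 and 3317 in the wild type, or 2168 ± 53.5 against 3195 ± 112 (SD, n = 3). Its log2 change was -0.56 ± 0.15, with an interval from -0.89 to -0.22 (unadjusted p = 0.00439, adjusted p = 0.230). The brightest read 4752, 4085 and 3694 against 5480, 5122 and 5547 (-0.37 ± 0.15, adjusted p = 0.408), and the dimmest had -0.33 ± 0.19 (adjusted p = 0.544). With knockout array 1 alone the middle probe set had -0.60, and over the alternative settings its value ran from -0.61 to -0.53. The brightest was less steady, from -0.47 to -0.16, with -0.18 on knockout array 1 alone and -0.16 with the Gapdh covariate.

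The values of the other anchoring genes overlapped between genotypes. For Akap2 the log2 change was -0.42 ± 0.30 (adjusted p = 0.637). Akap12, a scaffold for PKA and protein kinase C, gave 1406, 804 and 834 in the knockout and 717, 959 and 808 in the wild type (0.25 ± 0.29, and -0.0058 without knockout array 1, the only one above the wild-type range). The 5 tested genes of this group ran from -0.42 to 0.25. Akap4, Akap7, Akap9 and Akap17b were dim.

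Of the CREB family, Crem and Creb3l1 were tested and Creb1 was not. Crem makes both activators and the inducible repressor ICER from an internal promoter. It read 9484, 7131 and 14190 in the knockout and 7569, 6274 and 7996 in the wild type (log2 change 0.45 ± 0.24, adjusted p = 0.508, and 0.18 without knockout array 3). Its second probe set gave 0.49 ± 0.28 and the same order of arrays in the knockout, where array 3 was highest and array 2 lay among the wild-type values. Creb3l1, an endoplasmic reticulum factor of the wider family, read 5090, 6714 and 5600 against 4680, 5043 and 4914, with no overlap (0.24 ± 0.15, adjusted p = 0.578). The brightest of 3 Creb1 probe sets read 290, 444 and 281 against 379, 485 and 456, below the filter.

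Phosphodiesterases were mostly dim: 5 of 11 genes were tested, and 4 of the 5 had lower values. Pde8a, a high-affinity cAMP phosphodiesterase known from steroid-producing cells, read 1418, 1405 and 1549 in the knockout and 2088, 1471 and 1618 in the wild type (-0.23 ± 0.20, adjusted p = 0.703). Pde1b, which calcium and calmodulin activate, read 952, 1418 and 1530 against 697, 1247 and 831 (0.50 ± 0.30, adjusted p = 0.553). Pde4b, a cAMP-specific form, read 758, 207 and 940 against 1052, 742 and 520 (-0.47 ± 0.55), and Pde7a had -0.33 ± 0.41. Their 95% intervals ran from -1.70 to 0.77 and from -1.26 to 0.59. Pde6d is the prenyl-binding subunit named with the retinal enzyme, and had -0.05 ± 0.21. The retinal forms Pde6a, Pde6b and Pde6g, and Pde1a, Pde1c and Pde9a, were dim.

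**Figure D4:**
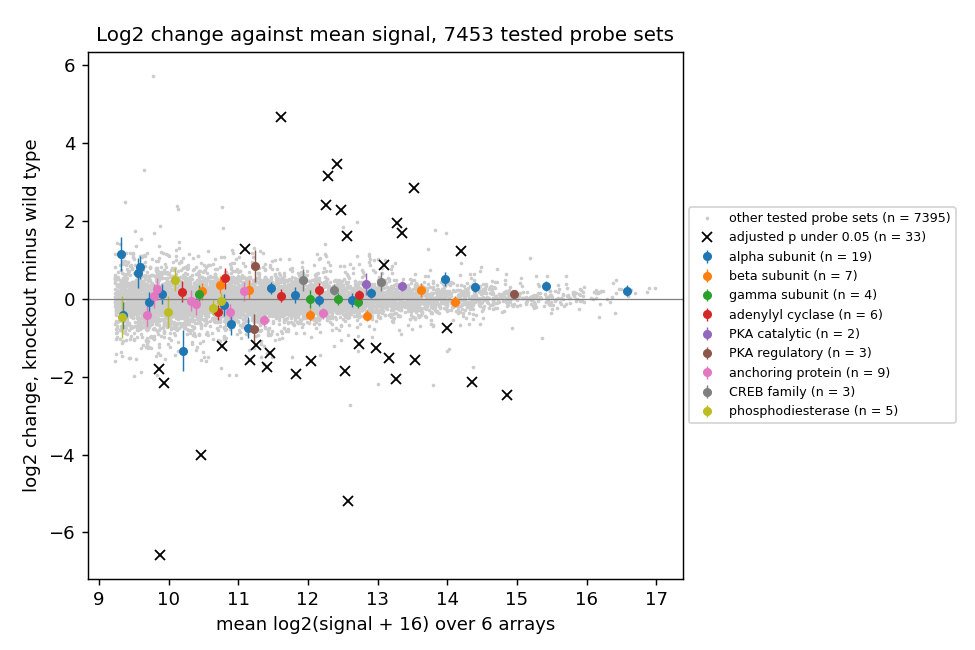
Log2 change (knockout minus wild type) against mean log2(signal + 16) over 6 arrays for the 7453 tested probe sets, with the 58 member probe sets coloured by role and drawn with their standard errors, and crosses on the 33 probe sets with an adjusted p under 0.05. No cross falls on a member, and the members lie within the grey cloud of the other probe sets.

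Lists of genes upstream and downstream of the members were read in the same fit. The neighbouring lists were chosen with earlier results of these data known, so that their counts are no independent support. Of 17 tested cAMP-inducible genes, 6 rose (Fos, Junb, Egr1, Rgs2, Gadd45b and Btg2), none fell and 11 did not pass, beside 0.388% of all tested genes called and 0.177% called higher. The median of the 17 was 1.15 on the log2 scale. Counting the 6 that rose, 11 of the 17 had higher values at an unadjusted p under 0.05, beside 5.26% of all tested genes. Over 19 alternative settings Junb and Egr1 passed in 19, Btg2 and Gadd45b in 17, Rgs2 in 15 and Fos in 10. Many of these genes also answer to calcium, growth factors and stress. In this list Th had 0.12 and Star, the cholesterol carrier of steroid synthesis, -0.13, neither past the threshold. Among 18 regulators of G proteins 1 rose, Rgs2, which curbs Gq and adenylyl cyclase signalling (1.22, adjusted p = 0.00948, and 0.0728 without knockout array 3), and 17 did not pass. Grk5, a kinase that desensitizes receptors, had 0.65 ± 0.27 (adjusted p = 0.408), from 1650, 2441 and 2934 in the knockout and 1924, 1260 and 1250 in the wild type. Rgs2 and Grk5 were the 2 of 18 regulators with an unadjusted p under 0.05, beside 10.7% of all tested genes.

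No receptor gene passed in limma. Of 10 tested Gs-coupled receptors and their partners 0 passed. For 1 of the 10 the unadjusted p was under 0.05, beside 10.7% of all tested genes. This was the follicle-stimulating hormone receptor gene Fshr (-0.75, adjusted p = 0.385). The corticotropin receptor gene Mc2r had -0.07. Its accessory protein gene Mrap gave 28172, 13070 and 15275 in the knockout and 30087, 24005 and 22384 in the wild type (-0.51, adjusted p = 0.504), so that only knockout array 1 lay in the wild-type range. Without knockout array 1 Mrap fell (-0.84, adjusted p = 0.0456), and with knockout array 1 alone its value was 0.16. Of 9 Gi-coupled receptors and 4 Gq-coupled receptors 0 passed and 0 had an unadjusted p under 0.05. The lowest p were those of Sstr4 (-0.20), Htr1b (-0.61), F2r (0.16) and Ednrb (-0.04).

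The remaining lists had no call. An unadjusted p under 0.05 was reached by 1 of 5 CREB partners and kinases (Crebbp) and 1 of 8 Gq effectors (Prkcd), beside 10.7% of all tested genes. Of 3 tested PKA inhibitors and other effectors, Hcn3 had 0.54 and Pkig -0.25. The 4 tested genes of cGMP synthesis all had higher values, such as Npr3 (0.55) and Nppa (0.23), none past the threshold and 0 with an unadjusted p under 0.05. Without wild-type array 1 both were 0.10. Of 5 CREB partners and kinases, the coactivator gene Crebbp read 1976, 2499 and 2340 in the knockout and 1680, 1590 and 1856 in the wild type (0.40, adjusted p = 0.433), and Atf4 had -0.15. Of 8 Gq effectors, the protein kinase C gene Prkcd read 12080, 10143 and 10694 against 15693, 14840 and 13065 (-0.40, adjusted p = 0.351), with no overlap, and Prkcb had 0.32.

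**Figure D5:**
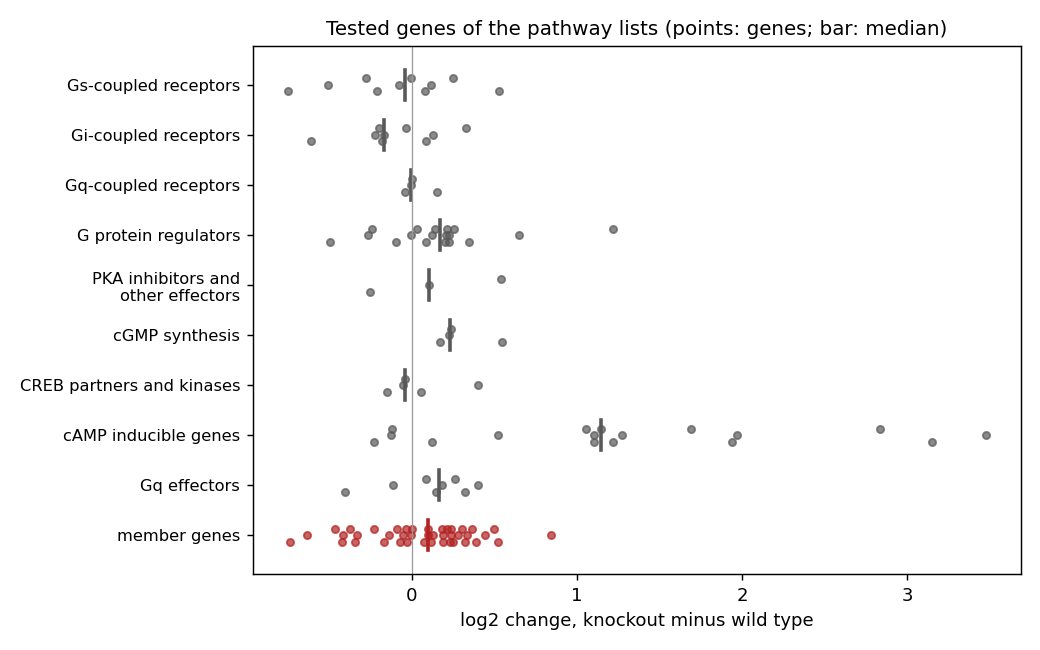
Log2 change (knockout minus wild type) of each tested gene in the 9 pathway lists and, in red, of the 41 tested member genes, with a bar at each median. The cAMP-inducible list has its median at 1.15, while the medians of the members, at 0.10, and of the other lists lie between -0.16 and 0.23.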

How the data were processed

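Each probe set has 1 deposited value per array, an intensity on a linear scale. Per the submitters' processing notes the tool was MAS5, and no source used here gives the version or the scaling target. The mean after trimming 2% at each end was 2501 on each array, so the values were used as scaled. Of 12488 probe sets, 66 controls were not tested. Symbols came from the platform annotation, updated through Entrez identifiers with a RefSeq table of GRCm38.p6. Of 12422 probe sets, 10833 had 1 symbol, 396 several and 1193 none.

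Values were compared as log2(signal + 16) with limma 3.58.1 in R 4.3.3 (lmFit, eBayes with trend), after leaving out probe sets under the 40th percentile of mean signal (about 582). Adjusted p are Benjamini-Hochberg over all 7453 tested probe sets. Errors after ± are standard errors for log2 changes and SD for signals. The log2(signal + 16) scale understates changes of dim genes. An array gives no counting depth, and 3 arrays per genotype limit the precision. Each p-value sets the genotype difference against the spread between arrays of the same genotype, moderated by eBayes over the tested probe sets.

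A gene is represented by its brightest probe set. The members and lists were chosen with earlier results of these data known. The text names members by a written rule: any with a probe set past adjusted p 0.05, those whose brightest probe set has an unadjusted p under 0.05, the 3 of lowest p in each role, genes whose probe sets differ in sign by over 0.5, and in each neighbouring list the genes past the threshold and the 2 of lowest p. Other genes named, such as Gna11, Gna12, Gna14, Gnaq, Gnas, Gnaz, Pde7a, the dim members, Mc2r, Th and Star, were chosen after their values were seen. The script was tested on simulated data. Alternatives covered the pseudocount, filter, normalization, variance model, array weights, replicate block and each array left out. Knockout array 1 alone and the Gapdh ratio as a covariate were added after seeing the data. They are not separate checks. The Gapdh ratio was 1.30 and 1.29 on knockout arrays 2 and 3 and 0.762 to 0.831 on the others. Both settings therefore rest largely on knockout array 1 against the wild type.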

Additional observations from a re-analysis of the deposited data

How the results depend on the processing

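The count of member probe sets past adjusted p 0.05 was 0 under all alternatives but 1, the fit without knockout array 1, where it was 2 (range over the arrays left out, 0 to 2). Chga kept its direction and call in all of them. The count over all probe sets, 33, was 17 by eBayes without trend, 12 with the Gapdh ratio as covariate, 13 with knockout array 1 alone, and 15 to 141 with an array left out (141 without knockout array 1, 15 without knockout array 3, 17 and 19 without wild-type arrays 2 and 3). With the replicate block it was 57, and 0 members passed. Deviations from the group means correlated at 0.26, -0.04 and -0.04 for same-numbered arrays. They correlated at 0.25 for knockout array 2 and wild-type array 3, and at 0.16 for knockout array 3 and wild-type array 2. Whether the arrays are paired, by number or in another order, cannot be decided from 3 arrays per genotype. The 5 member genes with an unadjusted p under 0.05 became 12 over all tested member probe sets, 2 by eBayes without trend, 3 under median scaling, 1 with the Gapdh covariate, and 1 to 9 with an array left out. The share of all genes under this p in the alternative fits was not computed. The median log2 change of member genes, 0.10, was 0.039 with no filter on dim probe sets and 0.051 to 0.14 with an array left out. Most reversals came with the Gapdh covariate and with knockout array 1 alone, which gave these log2 changes in that order: Adcy7 -0.25 and -0.12, Atf4 0.46 and 0.37, Ednrb 0.55 and 0.45, F2r -0.10 and -0.042, the brightest Gna12 probe set 0.39 and 0.32 and the dimmer 0.39 and 0.10, the middle Gnao1 probe set 0.018 and 0.011, the brightest Gnb1 probe set -0.23 and -0.16, Gng10 -0.18 and -0.17, Gng11 -0.13 and -0.064, Gng12 0.17 and 0.14, Mrap 0.27 and 0.16, Pde4b 0.17 and 0.032, Pde7a 0.32 and 0.13, and Prkaca -0.43 and -0.32. Both settings rest largely on knockout array 1 and are not separate checks. The covariate alone reversed Htr1b (0.13), Npr3 (-0.99), the dimmer Prkar1b probe set (0.072) and Sstr4 (0.013). With an array left out the values crossed 0 for Akap12 (-0.0058 to 0.39), Atf4 (-0.41 to 0.11), Ednrb (-0.17 to 0.27), the brightest Gna12 probe set (-0.21 to 0.074), the middle Gnao1 probe set (-0.26 to 0.066), Gng10 (-0.067 to 0.089), Gng11 (-0.014 to 0.23), Gng12 (-0.21 to 0.0044), Pde4b (-0.87 to 0.18) and Pde7a (-0.69 to 0.11). The cause of these shifts was not tested.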
